A study of Homo sapiens with 6 samples.

Results

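RPMI-8226-R, a bortezomib-resistant derivative of the multiple myeloma line RPMI-8226, was compared with its parent across all genes. The comparison took the 2 libraries titled RPMI-8226-R and the 2 titled RPMI-8226, 4 of the 6 samples of the series. Both lines are labelled as B-lymphocytes, and all 4 libraries came from cells given no treatment, so neither line had the drug on it by the labels. Total RNA was sequenced after ribosomal RNA had been removed, which keeps long non-coding RNAs (lncRNAs) with and without a poly(A) tail. The sources used here do not give how resistance was raised or whether RPMI-8226-R is 1 clone. Nothing in the labels ties the replicate libraries to separate cultures. The p-values therefore reflect spread among libraries alone, and that spread may be technical.

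Multiple myeloma is a cancer of plasma cells, the antibody-secreting end stage of B cells. Bortezomib inhibits the proteasome, the protease complex that degrades ubiquitin-tagged proteins, by binding the chymotrypsin-like site of its subunit PSMB5. Plasma cells depend on the proteasome because of the antibody chains they fold and discard, and resistant lines are used to study how tumours escape the drug.

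The 4 libraries held 25695927 to 29052199 estimated reads. Levels are given as TMM-normalised CPM (read counts scaled to library size) and as TPM wherever different genes are set beside each other, because TPM accounts for gene length. Among 10525 genes above 5 CPM, the typical (median) difference was 1.05-fold between the 2 parental libraries, 1.08-fold between the 2 resistant ones and 1.44-fold between the lines. Plasma cell markers summed to 3168 and 3307 TPM in RPMI-8226 and 4615 and 4768 TPM in RPMI-8226-R. Of the 10 markers 7 (70%) rose and 2 (20%) fell. Of all tested genes 34.1% were higher and 36.1% lower, and of coding genes above 25 CPM in the higher line 49.1% and 33.5%. Most of the plasma cell sums was JCHAIN and MZB1. Mean JCHAIN went up from 1439 to 3177 TPM, while MZB1 went down from 1427 to 869 TPM. PRDM1 was the other marker that fell. B cell markers summed to 15.4 and 13.9 TPM in the parent and 5.26 and 5.06 TPM in the derivative, while natural killer markers reached at most 0.225 TPM in any library. Epithelial markers summed to 148 and 154 TPM in RPMI-8226 and 277 and 298 TPM in RPMI-8226-R, nearly all of it KRT18, EPCAM and KRT8. KRT18 and EPCAM carried the rise, while KRT8 went from a mean of 18.0 to 15.7 TPM. The stromal sum of 14.8 and 15.8 against 1.31 and 3.40 TPM was COL1A1, with COL1A2 at 0 in all libraries. The erythroid sum of 53.3 and 54.9 against 159 and 174.5 TPM was the alpha globin genes HBA1 and HBA2, with ALAS2 at 0. In bulk RNA, fewer cells that express a gene and less RNA of it per cell cannot be told apart.

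Most of the measured transcriptome differed between the lines, and the large differences were mainly losses. Of 18323 genes with enough reads to test, 12876 (70.3%) passed (edgeR quasi-likelihood test, Benjamini-Hochberg adjusted p under 0.05, 2 libraries per line). In RPMI-8226-R 6254 genes (34.1%) were higher and 6622 (36.1%) lower. At least 2-fold, 2649 genes (14.5%) were higher and 3721 (20.3%) lower, and at least 4-fold 697 (3.8%) were higher and 2043 (11.1%) lower. The balance of all calls depended on scale: on log2(TPM + 1) values, where the median of all tested genes moved from -0.02 to 0.15, 6912 genes were higher and 4404 lower. For 1248 genes (6.81%) the 95% interval of the fold change lay within 1.25-fold, so on TMM-normalised counts these were measured as close to equal. With upper-quartile scaling the median of all tested genes was -0.17, so this set depends on the scale as well. The scatter of fold change against level shows both tails.

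**Figure D1:**
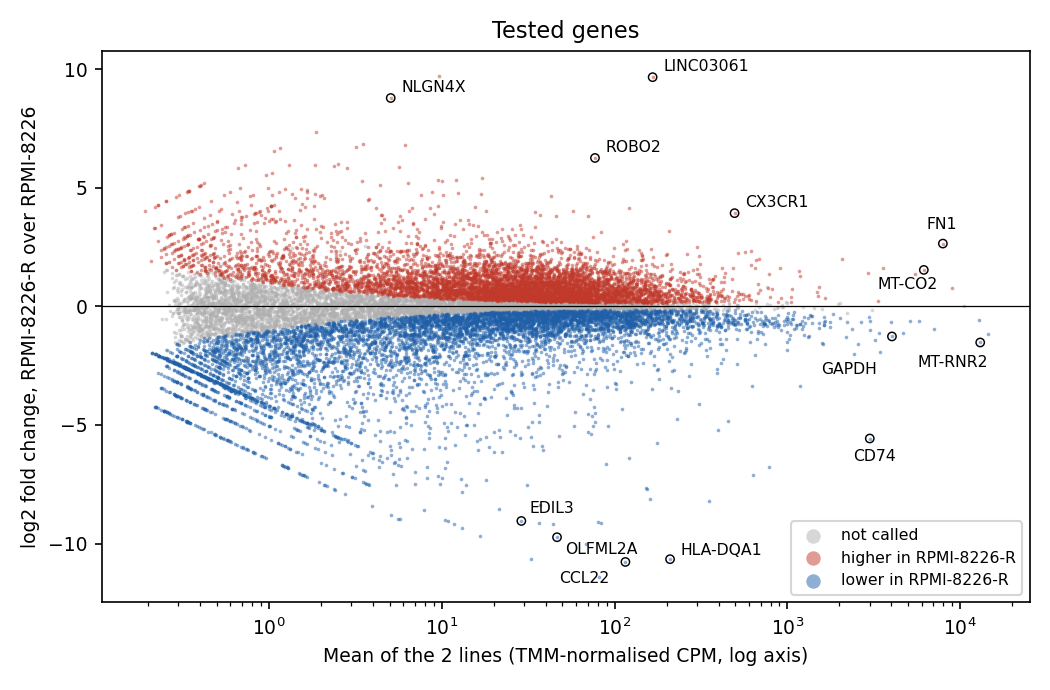
Log2 fold change of RPMI-8226-R over RPMI-8226 (y axis) against the mean level of both lines in CPM (log x axis), 1 point per tested gene, without Y chromosome genes and antigen receptor variable segments; red points were called higher, blue lower and grey neither, and genes without a count in a line are drawn at the bound set by 3 counts per library. The lower tail is the fuller one: 2043 genes were at least 4-fold lower and 697 at least 4-fold higher.

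A few abundant genes carried much of the change in reads. FN1, which encodes the matrix glycoprotein fibronectin (ENSG00000115414; chromosome 2, 215360440 to 215436172; coordinates here and below are GRCh38, GENCODE 29), was at 2159 and 2209 CPM in RPMI-8226 and 12598 and 14779 CPM in RPMI-8226-R. Its log2 fold change was 2.65 ± 0.09 (edgeR adjusted p = 3.1e-12). Mitochondrial mRNAs took 3.06% and 3.15% of reads in RPMI-8226 and 6.80% and 5.50% in RPMI-8226-R, whereas the mitochondrial ribosomal RNAs went from 2.04% and 2.11% down to 0.919% and 0.657%. The cytochrome c oxidase subunit MT-CO2 rose 2.903-fold, MT-ATP6 of the ATP synthase 3.04-fold and cytochrome b (MT-CYB) 4.01-fold, while the large ribosomal RNA MT-RNR2 fell 2.87-fold. The 2 resistant libraries differed in these RNAs more than the parental ones did: MT-RNR2 stood at 18883 and 19830.0 CPM in RPMI-8226 and 7941 and 5542 CPM in RPMI-8226-R. Ribosomal RNA was removed before sequencing, so the level of MT-RNR2 also depends on how much of it the removal left in each library. A difference in that removal and a difference between the lines cannot be told apart here. INSIG1 and SCD, of sterol control and fatty acid desaturation, were among the 10 genes that gained most reads. Among those that lost most were IGLC2 and IGLC3, the constant regions of the lambda light chain, and the glycolytic enzymes PKM, GAPDH and ALDOA. Immunoglobulin genes as a whole went from 3.69% and 3.68% of reads to 1.88% and 1.84%.

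The largest rises among protein-coding genes included receptors, secreted proteins and enzymes. ROBO2, a receptor for SLIT guidance proteins, was at 2.18 and 1.78 CPM in RPMI-8226 and 149 and 155 CPM in RPMI-8226-R, which is a change of 6.26 ± 0.11 on the log2 scale (edgeR adjusted p = 2.5e-15). Its estimated transcript length was 2.42 times longer in the derivative, so its rise is larger in reads than in TPM (1.06 ± 0.222 to 39.7 ± 2.61 TPM; mean ± SD, n = 2). CREG2, a secreted glycoprotein, had 3 counts in RPMI-8226 and reached 6.502 and 7.43 CPM in RPMI-8226-R, a count ratio of 127 (95% counting interval 43.02 to 617). CX3CR1, the receptor of the chemokine fractalkine (ENSG00000168329; chromosome 3, 39263494 to 39281735), was at 58.4 and 63.4 CPM in RPMI-8226 and 911 and 946 CPM in RPMI-8226-R and rose 15.3-fold (edgeR adjusted p = 7.8e-15). Its ligand CX3CL1, chosen after its values were seen, went the other way, from 15.3 and 17.4 CPM to no count, which is at least 149.6-fold lower. The receptor was therefore higher in the line where the ligand was not detected.

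Among enzymes, the sulfotransferase CHST4 rose 39.1-fold, the ubiquitin ligase RNF182 17.6-fold, the phosphatase CDC14B 16.4-fold, the kinase MARK1 15.1-fold and the acyltransferase LPGAT1 13.9-fold. RNF182 stood at 12.5 and 13.6 CPM in RPMI-8226 and 226 and 233 CPM in RPMI-8226-R. The insulin-like growth factor carrier IGFBP2 went from 4.78 ± 0.00414 to 69.7 ± 3.64 CPM (mean ± SD, n = 2) and the actin-binding CNN3 from 6.19 ± 0.9398 to 85.8 ± 5.77 CPM. The WNT potentiator RSPO2 rose 12.8-fold, and the cancer-testis antigens MAGEA12 and CTAG2 rose 14.4-fold and 11.7-fold. MAGEA12 went against its list: of PAGE, GAGE, MAGE, SSX and XAGE cancer-testis genes 11 of 44 tested genes rose and 27 fell, with a median log2 fold change of -1.32 on the count scale and -0.59 on the log2(TPM + 1) scale. In this list 25% were higher and 61.4% lower, beside 34.1% and 36.1% of all tested genes. PPP1R10, a nuclear regulator of protein phosphatase 1, rose 16.1-fold in reads, while its TPM went from 9.28 ± 0.576 to 29.3 ± 5.06 TPM as its estimated length changed from 758 to 3953 bases. PSMB5 itself was at 49.8 and 52.1 CPM in RPMI-8226 and 80.6 and 67.3 CPM in RPMI-8226-R, 1.45-fold higher (edgeR adjusted p = 6.1e-05).

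Many of the largest falls took genes to near 0. Of the 25 largest falls of coding genes 7 belonged to HLA class II, the molecules that show peptides to CD4+ T cells; these genes share close sequence, so the split of reads between them is uncertain. The matrix protein OLFML2A (ENSG00000185585; chromosome 9, 124777158 to 124814885) went from 89.7 and 96.2 CPM to no count in either resistant library and was at least 851-fold lower. The heparan sulfate proteoglycan SDC4 went from 24.97 and 27.6 CPM to 2 counts, so that the parent's count was higher by a ratio of 722 (95% counting interval 199 to 5964). SULF2, the sulfatase that trims heparan sulfate outside the cell, likewise kept 2 counts, with a ratio of 644 (95% counting interval 178 to 5321). The cytochrome P450 genes CYP1A1 and CYP1A2, textbook targets of the aryl hydrocarbon receptor, lie side by side on chromosome 15. CYP1A1 was at 70.6 and 75.3 CPM in RPMI-8226 and 0.113 and 0.1401 CPM in RPMI-8226-R, a 554-fold fall (edgeR adjusted p = 1.1e-14), and CYP1A2 went from 5.42 and 5.002 CPM to no count. HSPA6, a strictly inducible HSP70 chaperone, was at 152 and 182 CPM in RPMI-8226 and 0.302 and 0.2803 CPM in RPMI-8226-R, 566-fold lower. RETREG1, a receptor for autophagy of the endoplasmic reticulum, kept 2 counts against 21.3 and 22.02 CPM in the parent. EBI3, a subunit of interleukins 27 and 35, fell 331-fold, and the chemokine CCL22 (ENSG00000102962; chromosome 16, 57358772 to 57366190) fell 1753-fold, from 224 and 238 CPM to 0.0378 and 0.2102 CPM. In each of these genes the higher resistant library lay below the lower parental one. The rule for the largest coding falls required this, so it is not a result about them. Of the 12876 called genes 12875 had no overlap between the lines. The plot of single libraries shows the levels of OLFML2A, SDC4, SULF2, CYP1A1, HSPA6 and CCL22.

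**Figure D2:**
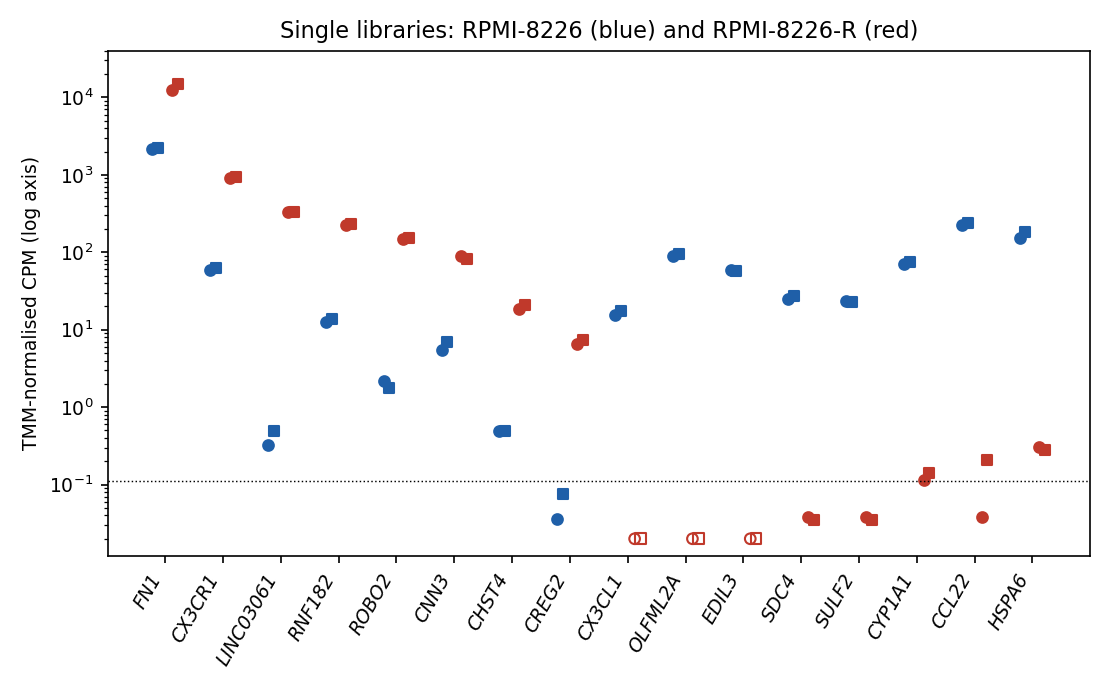
TMM-normalised CPM (log axis) of 16 genes in each library: blue circles and squares are RPMI-8226 replicates 1 and 2, red ones RPMI-8226-R replicates 1 and 2. Open symbols at the bottom are libraries with no count, and the dotted line is the mean level that 3 counts stand for. No gene drawn has overlapping lines, which also held for 12875 of the 12876 called genes.

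Many more genes were without a read in RPMI-8226-R than in RPMI-8226. Of called genes, 199 protein-coding, 50 lncRNA and 17 pseudogenes had no count in either resistant library, against 18, 9 and 5 without a count in either parental library. With at least 1 TPM in the other line, the numbers were 66, 23 and 11 against 7, 6 and 4. The genes lost from RPMI-8226-R included AIRE, the thymic regulator of self-antigen expression (18.9 and 20.3 CPM in the parent, at least 179-fold lower), and MS4A1, the B cell antigen CD20 (6.1003 and 7.01 CPM). They also included the growth factors HBEGF (5.92 and 6.74 CPM) and EDN1 (4.92 and 5.76 CPM), the WNT antagonist SFRP2 (6.92 and 8.87 CPM) and the mast cell tryptases TPSAB1 and TPSB2, near copies that can share reads. The genes detected in RPMI-8226-R alone included the transcription factor SALL1 (2.08 and 2.03 CPM, at least 18.6-fold higher), the GTPase RAB32 and the membrane protein MS4A6A, which happened to have the same counts (60 and 52, or 2.27 and 1.82 CPM). UTP14C, at 16.2 and 8.51 CPM, is a processed copy of UTP14A that overlaps another gene, so its reads are uncertain. AIRE, MS4A1, HBEGF, EDN1, SALL1, MS4A6A and UTP14C were chosen after their values were seen.

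To show the range of CpG content among genes detected in 1 line and at or near 0 in the other, 4 promoters are printed, a CpG-rich and a CpG-poor one of genes lower and of genes higher in RPMI-8226-R. They are from RefSeq (GRCh38.p14), 250 bases before to 50 after the start, 5′ to 3′, with each CG dinucleotide (CpG) in capitals. OLFML2A (chr9:124776883-124777182, plus strand, 34 CpG) and CCL22 (chr16:57358533-57358832, plus strand, 4 CpG) were lower, RAB32 (chr6:146543583-146543882, plus strand, 45 CpG) and MS4A6A (chr11:60184617-60184916, minus strand, 4 CpG) higher.
OLFML2A: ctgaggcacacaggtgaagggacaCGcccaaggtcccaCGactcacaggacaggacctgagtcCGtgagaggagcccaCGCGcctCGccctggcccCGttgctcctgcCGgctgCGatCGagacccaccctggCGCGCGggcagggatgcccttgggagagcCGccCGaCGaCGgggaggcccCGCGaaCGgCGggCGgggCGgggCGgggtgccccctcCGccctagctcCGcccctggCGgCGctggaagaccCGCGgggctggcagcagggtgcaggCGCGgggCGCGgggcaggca
CCL22: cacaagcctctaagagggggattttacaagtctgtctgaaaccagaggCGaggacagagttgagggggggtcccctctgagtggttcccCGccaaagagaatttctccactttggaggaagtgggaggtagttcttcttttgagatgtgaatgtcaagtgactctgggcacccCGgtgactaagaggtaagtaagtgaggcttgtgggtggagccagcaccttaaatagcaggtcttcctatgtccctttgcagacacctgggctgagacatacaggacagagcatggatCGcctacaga
RAB32: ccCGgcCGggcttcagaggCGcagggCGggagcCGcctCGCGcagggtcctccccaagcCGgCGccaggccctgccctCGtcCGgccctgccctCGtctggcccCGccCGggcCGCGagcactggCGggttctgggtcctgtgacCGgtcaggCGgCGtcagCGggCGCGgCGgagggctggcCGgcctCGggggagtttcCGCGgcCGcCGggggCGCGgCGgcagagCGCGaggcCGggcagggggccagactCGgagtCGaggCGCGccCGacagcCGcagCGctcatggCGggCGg
MS4A6A: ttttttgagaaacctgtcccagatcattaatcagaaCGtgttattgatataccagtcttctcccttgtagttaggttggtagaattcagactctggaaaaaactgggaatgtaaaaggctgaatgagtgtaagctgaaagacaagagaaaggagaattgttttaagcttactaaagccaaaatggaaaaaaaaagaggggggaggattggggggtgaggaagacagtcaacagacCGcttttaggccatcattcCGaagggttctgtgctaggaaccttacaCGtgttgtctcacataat
Promoters were found for 10457 of 12991 tested coding genes, with a median of 26 CpG, and 87.3% held at least 10. Of the coding genes called lower with no count in RPMI-8226-R, 133 had a promoter, with a median of 12 CpG, and 55.6% held at least 10. Those without a count in RPMI-8226 had a median of 4 (15 promoters). Weakly expressed genes have fewer CpG in general: among all tested coding genes under 5 CPM in the higher line the median was 19, and among lost genes under 5 CPM it was 12. DNA methylation was not measured, and these counts are a description of sequence.

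Genes for the cell surface, the matrix and cell-cell contact included many that fell. The counts below cover members that passed the filter on low reads. A gene that passed through 1 line alone had to differ, so each list is described beside all tested genes (34.1% higher, 36.1% lower, median -0.02, or 0.15 on the log2(TPM + 1) scale). The level matters as well. Among all tested coding genes at 1 to 5 CPM in the higher line 17.1% were higher and 52.0% lower, at 5 to 25 CPM 36.7% and 34.4%, and above 25 CPM 49.1% and 33.5%. Of collagens, laminins and matrix glycoproteins 9 of 51 tested genes rose and 33 fell, with a median log2 fold change of -1.66 on the count scale and -0.28 on the log2(TPM + 1) scale. Besides FN1 the rises in this list included OLFML2B and MATN2 (5.35-fold and 3.86-fold), so the most abundant matrix gene and the family moved in opposite directions. Of serpins, cystatins, cathepsins and coagulation factors 5 of 38 tested genes rose and 28 fell, with a median log2 fold change of -1.81 on the count scale and -0.69 on the log2(TPM + 1) scale. Tissue factor, F3, the starter of coagulation, rose 23.1-fold against the direction of its list.

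Of claudins, tetraspanins and tight junction genes 9 of 46 tested genes rose and 30 fell, with a median log2 fold change of -0.76 on the count scale and -0.21 on the log2(TPM + 1) scale; TSPAN7 was at 64.7 and 59.3 CPM in RPMI-8226 and 0.454 and 0.2102 CPM in RPMI-8226-R. Of cadherins and protocadherins 8 of 27 tested genes rose and 16 fell, with a median log2 fold change of -1.17 on the count scale and -0.20 on the log2(TPM + 1) scale, with FAT1 6.41-fold higher and PCDH1 9.12-fold lower. In the immunoglobulin superfamily adhesion list 11 of 40 tested genes rose and 23 fell, with a median log2 fold change of -0.88 on the count scale and -0.36 on the log2(TPM + 1) scale. That list also held large rises. The neural adhesion molecule NCAM1, which myeloma cells often carry as CD56, was at 16.6 and 17.8 CPM in RPMI-8226 and 146 and 153 CPM in RPMI-8226-R, 8.69-fold higher (edgeR adjusted p = 1.3e-13). NLGN4X, a synaptic adhesion protein, had 1 count in the parent and 9.98 and 10.3 CPM in the derivative. Of lectins, siglecs, galectins and LILR receptors 3 of 32 tested genes rose and 21 fell, with a median log2 fold change of -1.15 on the count scale and -0.38 on the log2(TPM + 1) scale.

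Receptors and signalling proteins also had more members lower than higher. Of the TNF ligand and receptor superfamily 5 of 28 tested genes rose and 19 fell, with a median log2 fold change of -1.08 on the count scale and -0.49 on the log2(TPM + 1) scale. CD40, the co-stimulatory receptor of B cells, was at 15.8 and 15.95 CPM in RPMI-8226 and 0.491 and 0.771 CPM in RPMI-8226-R and fell 24.8-fold, and TNFRSF9 fell 46.6-fold, whereas the death-domain receptor TNFRSF1A was at 26.8 and 25.4 CPM in RPMI-8226 and 100.3 and 99.05 CPM in RPMI-8226-R and rose 3.82-fold. Of interleukins and their receptors 13 of 47 tested genes rose and 23 fell, with a median log2 fold change of -0.58 on the count scale and -0.19 on the log2(TPM + 1) scale. IL32 was at 295 and 308 CPM in RPMI-8226 and 1.59 and 1.37 CPM in RPMI-8226-R, 204-fold lower, while IL6R, the receptor of the myeloma growth factor interleukin 6, was at 74.4 and 73.6 CPM in RPMI-8226 and 194 and 199 CPM in RPMI-8226-R, 2.65-fold higher. Of G protein-coupled receptors 20 of 84 tested genes rose and 40 fell, with a median log2 fold change of -0.60 on the count scale and -0.08 on the log2(TPM + 1) scale. The interleukin list holds weak genes, with a median level of 3.75 CPM. Of its members 48.9% were lower, no more than the 52.0% among coding genes at 1 to 5 CPM. The receptor list had a median level of 5.44 CPM, and 47.6% of it was lower. That share lies between the 52.0% of coding genes at 1 to 5 CPM and the 34.4% at 5 to 25 CPM. RGS1 and RGS2, which switch G proteins off, fell 45.8-fold and 67.1-fold. Of protein kinase C, diacylglycerol kinase and phospholipase genes 9 of 49 tested genes rose and 27 fell, with a median log2 fold change of -0.60 on the count scale and -0.18 on the log2(TPM + 1) scale. PRKCB, the protein kinase C of B cell receptor signalling, was at 43.99 and 43.8 CPM in RPMI-8226 and 0.454 and 0.771 CPM in RPMI-8226-R, 70.6-fold lower.

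Of potassium channels 9 of 42 tested genes rose and 26 fell, with a median log2 fold change of -0.91 on the count scale and -0.18 on the log2(TPM + 1) scale; the voltage-gated KCNA3 rose 5.65-fold and KCNQ3 fell 83-fold. The median level of this list was 3.71 CPM and 61.9% of it was lower, to be read against the 52.0% of coding genes at 1 to 5 CPM. Of semaphorins, plexins, netrin and SLIT guidance genes 7 of 39 tested genes rose and 24 fell, with a median log2 fold change of -0.89 on the count scale and -0.12 on the log2(TPM + 1) scale, the 76.5-fold rise of ROBO2 being one of the 7. Of ephrins and Eph receptors 2 of 15 tested genes rose and 10 fell, with a median log2 fold change of -1.38 on the count scale and -0.26 on the log2(TPM + 1) scale. Of cytidine deaminases and innate restriction genes 2 of 13 tested genes rose and 10 fell, with a median log2 fold change of -1.10 on the count scale and -0.45 on the log2(TPM + 1) scale. APOBEC3G, which edits viral DNA, was at 72.3 and 74.005 CPM in RPMI-8226 and 15.01 and 14.9 CPM in RPMI-8226-R, and APOBEC3D, APOBEC3F and APOBEC3H beside it on chromosome 22 also fell; these are close copies whose reads may be shared, and APOBEC3D did not pass without RPMI-8226 replicate 1 (edgeR adjusted p = 0.094) or on both TPM scales (limma adjusted p = 0.091 and 0.0995).

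Transcription factors split by type. Of homeobox factors 17 of 57 tested genes rose and 31 fell, with a median log2 fold change of -0.70 on the count scale and -0.32 on the log2(TPM + 1) scale: PRRX1 rose 17.7-fold and POU3F1 was at 24.4 and 27.7 CPM in RPMI-8226 and 0.0756 and 0.1401 CPM in RPMI-8226-R. With a median level of 4.26 CPM, the 54.4% of homeobox genes that were lower is close to the share of all coding genes that weak. Of nuclear receptors 11 of 28 tested genes rose and 15 fell, with a median log2 fold change of -0.58 on the count scale and -0.24 on the log2(TPM + 1) scale, with the immediate-early NR4A1 9.62-fold lower. In the helix-loop-helix and KLF list 10 of 46 tested genes rose and 25 fell, with a median log2 fold change of -0.42 on the count scale and -0.16 on the log2(TPM + 1) scale. BHLHA15 (MIST1), a regulator of secretory cells, was at 36.5 and 35.8 CPM in RPMI-8226 and 155 and 164 CPM in RPMI-8226-R, 4.41-fold higher. BHLHE40 and ID3 fell 6.44-fold and 6.302-fold. Zinc finger genes of the ZNF type leaned the other way on the count scale: 208 of 468 tested genes rose and 121 fell. Their median log2 fold change was 0.24 on the count scale and 0.22 on the log2(TPM + 1) scale. All tested coding genes had medians of 0.03 and 0.21, so on the log2(TPM + 1) scale the 2 medians were close. Longer genes rose more on counts. Among coding genes above 5 CPM in both lines, groups with median lengths of 2016 and 2840 bases had medians of 0.13 and 0.26. ZNF genes had a median length of 2602 bases, and their 0.24 lay between these values. Many ZNF genes are near copies in clusters, so single members are uncertain.

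Genes for RNA processing, chromatin, DNA repair and nucleotide supply rose in larger numbers than they fell; their lists had median levels above 25 CPM, where 49.1% of all coding genes were higher. Of DEAD/H-box helicases, HNRNP and SR splicing genes 99 of 155 tested genes rose and 26 fell, with a median log2 fold change of 0.51 on the count scale and 0.69 on the log2(TPM + 1) scale. The helicase DHX33 was at 13.5 and 13.9 CPM in RPMI-8226 and 60.1 and 64.8 CPM in RPMI-8226-R and the m6A writer subunit RBM15B rose 4.01-fold. Of deubiquitinases 43 of 79 tested genes rose and 16 fell, with a median log2 fold change of 0.40 on the count scale and 0.42 on the log2(TPM + 1) scale; OTUD4 rose 3.47-fold, while TNFAIP3 (A20), which limits NF-kB, was at 144 and 149 CPM in RPMI-8226 and 4.08 and 4.73 CPM in RPMI-8226-R, 33.1-fold lower. Of SWI/SNF and other chromatin remodelling genes 35 of 61 tested genes rose and 13 fell, with a median log2 fold change of 0.33 on the count scale and 0.45 on the log2(TPM + 1) scale. Of histone demethylases, methyltransferases and deacetylases 56 of 113 tested genes rose and 30 fell, with a median log2 fold change of 0.29 on the count scale and 0.40 on the log2(TPM + 1) scale. The share of histone enzyme genes that were higher, 49.6%, is that of other coding genes at such levels. The deubiquitinase, remodelling and histone enzyme lists had median lengths of 2425, 2484 and 2384 bases. Coding genes above 5 CPM in both lines, in groups with median lengths of 2016 and 2840 bases, had medians of 0.13 and 0.26 on counts. On log2(TPM + 1) values these groups had 0.34 and 0.415, close to the medians of these lists.

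Of Fanconi and homologous recombination genes 20 of 33 tested genes rose and 4 fell, with a median log2 fold change of 0.37 on the count scale and 0.56 on the log2(TPM + 1) scale; BRCA2 and ATR rose 2.86-fold and 2.81-fold. Of mismatch, base and nucleotide excision repair genes 25 of 39 tested genes rose and 4 fell, with a median log2 fold change of 0.36 on the count scale and 0.63 on the log2(TPM + 1) scale. In serine, glycine and one-carbon metabolism 14 of 22 tested genes rose and 4 fell, with a median log2 fold change of 0.40 on the count scale and 0.69 on the log2(TPM + 1) scale. MAT2A, which makes the methyl donor S-adenosylmethionine, was at 51.01 and 51.95 CPM in RPMI-8226 and 181 and 221 CPM in RPMI-8226-R, 3.904-fold higher. PHGDH, the first enzyme of serine synthesis, moved against its list at 41.1 and 36.6 CPM in RPMI-8226 and 3.97 and 3.99 CPM in RPMI-8226-R, 9.74-fold lower (edgeR adjusted p = 1.0e-11). In purine and pyrimidine synthesis and salvage 21 of 36 tested genes rose and 10 fell, with a median log2 fold change of 0.38 on the count scale and 0.53 on the log2(TPM + 1) scale; PFAS and UMPS rose 3.25-fold and 3.07-fold, and the salvage kinase DCK fell 2.01-fold. The bars by family show these shares beside those of all tested genes.

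**Figure D3:**
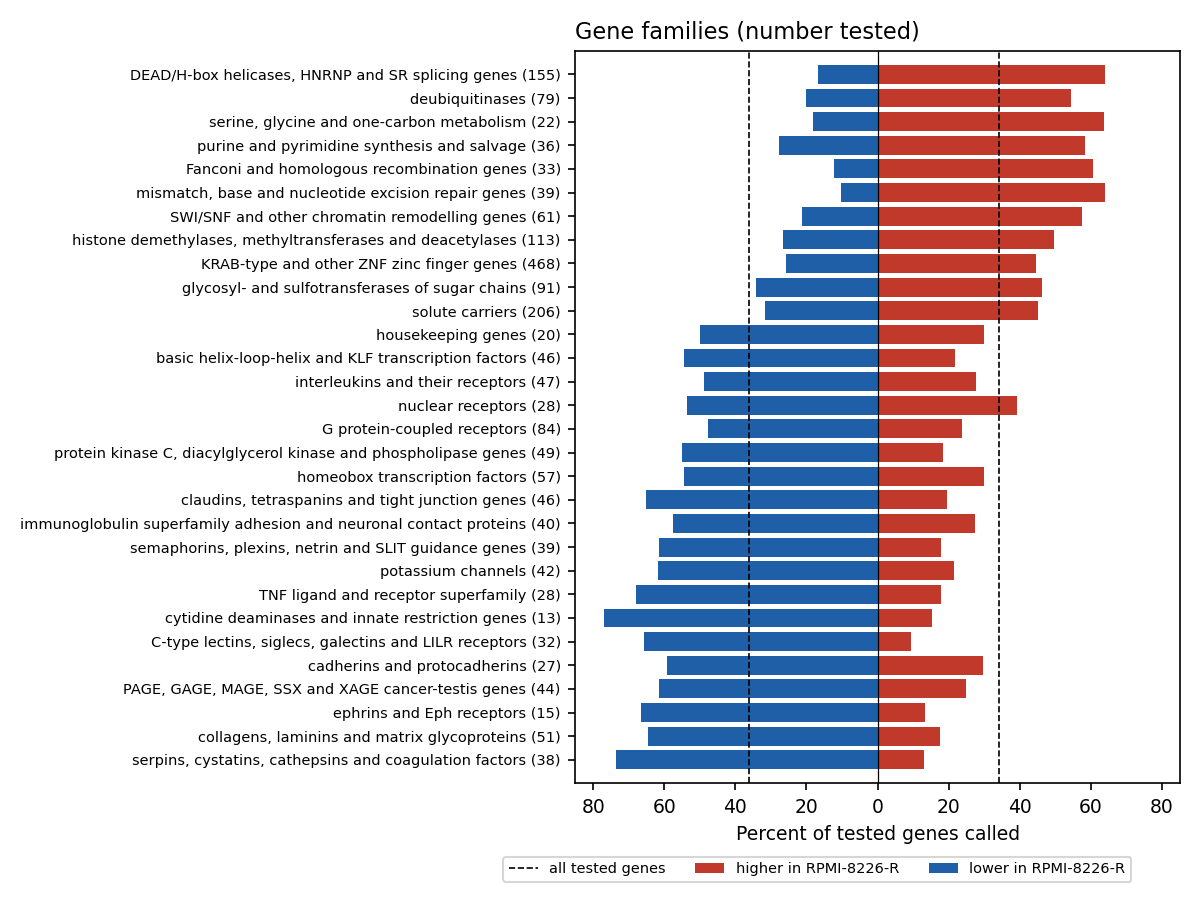
Percent of the tested genes of each family that were called higher (red, to the right) or lower (blue, to the left) in RPMI-8226-R, ordered by median fold change, with the number tested in parentheses; dashed lines mark 34.1% higher and 36.1% lower over all tested genes. Matrix, protease inhibitor and contact families lie at the bottom with long blue bars, and splicing, repair and chromatin families at the top with long red bars. The dashed lines are not matched for gene length or level: of coding genes above 25 CPM 49.1% were higher, and of those at 1 to 5 CPM 52.0% were lower.

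Long non-coding RNAs fell in larger numbers than they rose. Of 1903 tested lncRNAs 354 (18.6%) rose and 805 (42.3%) fell; at least 4-fold, 147 rose and 401 fell. The median log2 fold change was -0.54 for lncRNAs (-0.14 on the log2(TPM + 1) scale) and 0.03 for coding genes (0.21). Among genes above 25 CPM in the higher line, 31 of 93 lncRNAs were higher and 51 lower, against 3391 and 2312 of 6900 coding genes. At 5 to 25 CPM 50.7% of lncRNAs and 34.4% of coding genes were lower. Among weaker genes, from 1 to 5 CPM, it was 45.2% and 52.0%, and under 1 CPM 31.2% and 46.0%. The lean of lncRNAs was therefore larger than that of coding genes above 5 CPM and smaller below it. The median level of tested lncRNAs was 1.78 CPM in the higher line, against 28.0 CPM for coding genes. Of 2934 pseudogenes 691 were higher and 788 lower, and many of them share reads with their parent gene. The distributions of fold change by class show the 3 medians.

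The largest rise of a detected lncRNA was LINC03061 (ENSG00000275216; chromosome 13, 109269634 to 109278512), at 0.321 and 0.493 CPM in RPMI-8226 and 332 and 332 CPM in RPMI-8226-R, or 9.66 ± 0.13 on the log2 scale (edgeR adjusted p = 2.6e-16). It lies 61627 bases from MYO16, which had no count in RPMI-8226 and a mean of 0.0935 TPM in RPMI-8226-R. LINC02273 rose 42.1-fold. HK2-DT, divergent to the hexokinase gene HK2, had 3 counts in the parent and 6.16 and 6.48 CPM in the derivative, while HK2 itself fell 2.82-fold. EDIL3-DT, divergent to the integrin ligand EDIL3, was lost together with it: 5.14 and 4.93 CPM and 58.5 and 57.1 CPM in RPMI-8226, and no count of either in RPMI-8226-R. LINC03062 had no count in RPMI-8226-R, and the stress gene GADD45G next to it fell 67.3-fold. For 162 lncRNAs that fell at least 4-fold, the nearest coding gene lay within 10 kb and was tested. That gene fell for 81 of them and rose for 52, which is 50% lower beside 36.9% of all coding genes. For 49 such lncRNAs that rose at least 4-fold, the nearest gene rose for 25 and fell for 13, which is 51.0% higher beside 39.3% of all coding genes. A gene nearest to several lncRNAs can count more than once. The difference of these shares was not tested. Whether the counting used strand is not given, so reads of a lncRNA and an overlapping gene may be mixed. NEAT1, the scaffold of nuclear paraspeckles, chosen after its values were seen, was at 519 and 571 CPM in RPMI-8226 and 704 and 1243 CPM in RPMI-8226-R; it did not pass (edgeR adjusted p = 0.18). It passed on both TPM scales and with an effective-length offset (adjusted p = 0.019 on both TPM scales and 0.022). Without RPMI-8226-R replicate 1 or 2 it passed with log2 fold changes of 1.22 and 0.39, fits in which the parental pair alone gives the spread and the lone resistant library is assumed to vary like it.

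Mature microRNAs were not measured, but some of their host genes were. Of 32 tested hosts 9 (28.1%) rose and 13 (40.6%) fell, shares near those of all tested genes (34.1% and 36.1%). A selection of the mature products of called hosts (RefSeq, GRCh38.p14) is printed, not all of them. The seed, bases 2 to 8, is in capitals, because it sets which mRNAs a microRNA pairs with. The first 5 belong to hosts that fell and the others to hosts that rose.
miR-155-5p: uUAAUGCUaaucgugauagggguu
miR-181a-5p: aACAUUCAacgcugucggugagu
miR-181b-5p: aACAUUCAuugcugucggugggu
miR-210-3p: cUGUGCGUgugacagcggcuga
miR-146a-5p: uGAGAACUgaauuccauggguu
miR-142-3p: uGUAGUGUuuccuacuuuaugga
miR-17-5p: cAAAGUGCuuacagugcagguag
miR-20a-5p: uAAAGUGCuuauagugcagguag
miR-19a-3p: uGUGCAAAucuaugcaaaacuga
miR-19b-3p: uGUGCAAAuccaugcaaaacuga
let-7a-5p: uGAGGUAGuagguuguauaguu
let-7b-5p: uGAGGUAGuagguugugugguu
let-7i-5p: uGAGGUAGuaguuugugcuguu
MIR155HG, host of miR-155, which is known from activated B cells, was at 1.68 and 1.52 CPM in RPMI-8226 and 0.113 and 0.105 CPM in RPMI-8226-R, 14.1-fold lower (edgeR adjusted p = 1.8e-05). MIR181A1HG, host of miR-181a and miR-181b, which share a seed, kept 1 count. MIR210HG, whose product is known from hypoxia, fell 3.43-fold, and MIR3142HG, host of miR-146a, fell 2.44-fold. MIR17HG, the MYC-driven cluster that carries 2 printed pairs with a common seed, was at 1.75 and 1.63 CPM in RPMI-8226 and 4.196 and 7.22 CPM in RPMI-8226-R, 3.38-fold higher. MIR142HG rose 4.78-fold. MIRLET7IHG and MIRLET7BHG, hosts of let-7 members with 1 common seed, rose 4.41-fold and 3.14-fold from few reads. MIRLET7IHG did not pass on log2(TPM + 1) values (limma adjusted p = 0.099). The MIRLET7BHG call was lost without RPMI-8226 replicate 1 or 2 or RPMI-8226-R replicate 2 (edgeR adjusted p = 0.060, 0.15 and 0.26), and also with DESeq2, on both TPM scales and with an effective-length offset (adjusted p = 0.11 to 0.21).

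The differences were spread over the genome, with some runs of neighbours that changed alike. Median log2 fold changes of coding genes by chromosome ran from -0.17 on chromosome 18 to 0.23 on chromosome 21. Of 290 windows of 10 Mb with at least 10 tested genes, 267 had a median within 0.5, and the extremes were -1.43 and 0.82. At least 2-fold, 14.9% of placed coding genes were higher and 19.5% lower. There were 73 runs of at least 4 neighbouring tested coding genes that all changed at least 2-fold in the same direction, 55 lower with 266 genes and 18 higher with 81. On log2(TPM + 1) values, which shrink the change of weak genes, there were 24 runs, and whether neighbours clustered more than scattered genes would was not tested. Many runs were families of near copies, such as the 13 GAGE and PAGE genes on chromosome X, whose reads may be shared between neighbours. The box plot by chromosome shows the spread.

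**Figure D4:**
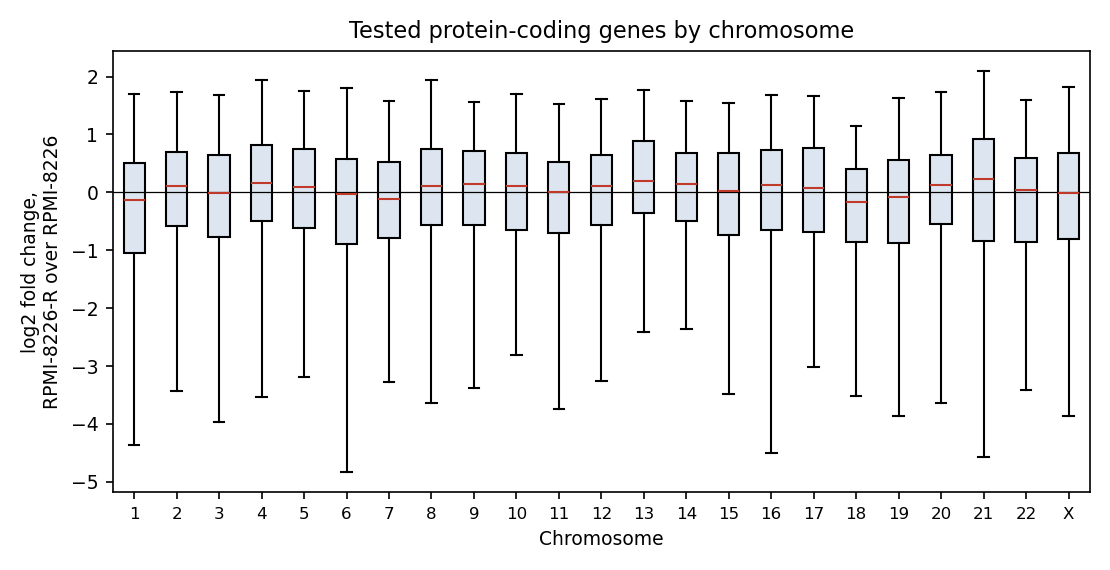
Log2 fold change of tested protein-coding genes by chromosome: red lines are medians, boxes the middle 50% and whiskers the 5th to 95th percentile. All medians lie close to 0, from -0.17 to 0.23, and the whiskers reach farther down than up.

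A run of lower genes on chromosome 16 (56466836 to 56684196) held the metallothioneins, small proteins that bind zinc and copper: MT2A was at 32.1 and 39.6 CPM in RPMI-8226 and 0.227 and 0.2102 CPM in RPMI-8226-R, 161-fold lower, with MT1F, MT1G and MT1X 18.8-fold, 17.2-fold and 6.12-fold lower and MT3 without a count. Another on chromosome 3 (187721377 to 190412143) held 7 genes, among them BCL6, the germinal centre repressor, at 11.2 and 12.96 CPM in RPMI-8226 and 0.151 and 0.315 CPM in RPMI-8226-R, and the claudin CLDN16, without a count in RPMI-8226-R. On chromosome 16 (853634 to 1258998) the tryptase genes were lower with LMF1, SOX8 and CACNA1H. The longest run of higher genes, 7 on chromosome 1 (93866283 to 95072945), held F3, CNN3, the choline transporter-like SLC44A3 (17.7-fold), the glutathione synthesis subunit GCLM (2.96-fold) and ALG14 of protein glycosylation. On chromosome 5 a run of 6 higher genes included the TIM family genes TIMD4 and HAVCR2 and the protease gene ADAM19. CACNA1H did not pass without RPMI-8226 replicate 1 (edgeR adjusted p = 0.086), nor with DESeq2, on both TPM scales or with an effective-length offset (adjusted p = 0.054 to 0.45). Copy number was not measured.

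Genes often used as references were not all steady. Of 20 housekeeping genes 6 (30%) rose and 10 (50%) fell. Of all tested genes 34.1% were higher and 36.1% lower, and of coding genes above 25 CPM 49.1% and 33.5%. The median level of the housekeeping list was 559.9 CPM, and calls were common among abundant genes in general. GAPDH was at 5663 and 5716 CPM in RPMI-8226 and 2437 and 2292 CPM in RPMI-8226-R, 2.41-fold lower. ACTB was 1.16-fold higher, a call that was lost without either parental library (edgeR adjusted p = 0.21 and 0.18), with all 6 libraries in the fit (0.059) and under upper-quartile scaling (0.38). PPIA was at 948 and 951 CPM in RPMI-8226 and 990.2 and 882 CPM in RPMI-8226-R, or -0.02 ± 0.07 on the log2 scale (edgeR adjusted p = 0.81).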

How the data were processed

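The authors deposited 1 table per library with estimated counts of reads, TPM, length and effective length of each gene, per the file headers. Estimated counts need not be whole and were rounded. Lengths, another deposited unit of the authors, are in bases. Per the submitters' processing notes, the genome build was GRCh38.p13. The sources used here do not give the quantifier or its use of strand. Of 61544 genes, 46 pseudoautosomal Y copies were added to their X copies, 61490 got a symbol from the gene name table and 58298 a position from GENCODE 29.

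Counts of the 4 libraries were tested with edgeR 4.0.16 (R 4.3.3): filterByExpr (minimum count 10, total 15), TMM scaling and a two-sided robust quasi-likelihood test with 2 residual degrees of freedom, with Benjamini-Hochberg adjustment across the 18323 tested genes at 0.05. Log2 fold changes are ± SE. A line without a count was set at a floor of 3 counts per library, and 1 to 3 counts gave a count ratio with an exact 95% interval; floors and intervals cover counting error only. The procedure was tested on simulated data.

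Genes were named as the 25 largest coding changes each way (at least 5 TPM, no overlap), the 12 largest lncRNA changes each way (at least 1 TPM), 5 each way of other types, the 10 that gained or lost most reads, up to 3 each way per list, members of runs, host genes, reference genes and PSMB5; the text gives a selection of them. The comparison, the rule and the 57 lists were chosen with earlier results of these data known, and 4 pattern matches that are no channels (GABARAP, GABARAPL1, GABARAPL2, GRINA) were dropped from a list afterwards. Genes of the Y chromosome and antigen receptor variable segments are not named, and some other genes are not reported here. Alternatives were DESeq2 1.42.0, limma 3.58.1 (voom, and trend on log2(TPM + 1) or log2(TPM + 0.1)), upper-quartile scaling, an effective-length offset, all 6 libraries, coding genes alone, no filter, each library left out and the replicate number as a block.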

Additional observations from a re-analysis of the deposited data

How the results depend on the processing

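Counts of genes higher or lower stayed within 1.5 times of the reported ones under the alternatives run, except that on log2(TPM + 1) values 4404 genes were lower, against 6622, and runs of neighbouring genes numbered 24, against 73; the cause was not tested. On log2(TPM + 0.1) values, run for these counts after seeing the data, 6885 genes were higher, 4447 lower and runs numbered 66. Windows of 20 Mb had a median within 0.5 in 96.8% of cases, against 92.1% at 10 Mb. Without each library in turn, 5501 to 6434 genes were higher and 5803 to 6763 lower, lncRNAs 303 to 370 and 674 to 865, runs 59 to 70, and 37 to 42 lists had a median below that of all genes (42 reported). The replicate numbers do not pair the samples (correlation of deviations 0.0798 over 11879 genes); with the replicate block 6341 genes were higher and 6694 lower, and of the named genes NEAT1 passed and ACTB did not. PPIA, not called on counts, rose on log2(TPM + 1) and log2(TPM + 0.1) values (log2 fold change 0.31 in both). With 2 libraries per line, small changes of weak genes are limited by depth: 3 counts stand for 0.105 to 0.114 CPM.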

Other observations

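The length that the deposited tables give for a gene is a mean over its transcripts, weighted by their estimated use. Of 9357 coding genes above 5 CPM in both lines, 9022 had a length that was steady between the libraries of a line. Of these, 92 were at least 2 times longer in RPMI-8226-R and 2 at least 2 times shorter. In the 92 genes the median log2 fold change was 0.64 on counts and -0.37 on log2(TPM + 1), so the sign of the median depended on the unit. CHD6, a chromatin remodeller, had 1536 bases in RPMI-8226 and 6147 in RPMI-8226-R. Its level went from 32.5 ± 1.52 to 21.5 ± 2.19 CPM (mean ± SD, n = 2). Across 5 equal groups of coding genes ordered by length, the median log2 fold change on counts went from -0.01 in the shortest group to 0.35 in the longest.

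Some identifiers of the same gene took over reads from each other. RMRP, the RNA of RNase MRP, has 2 identifiers: 1 held 50 and 60 counts in RPMI-8226 and 0 in RPMI-8226-R, and the other 0 in RPMI-8226 and 69 and 21 in RPMI-8226-R. Summed over both, RMRP had 50, 60, 69 and 21 counts, and no change is read from it.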
